A study of Mus musculus with 6 samples.

Results

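The clustered histone genes encode the linker histone H1 and the core histones H2A, H2B, H3 and H4, and they are listed in the deposited tables under symbols that begin with Hist1h, Hist2h, Hist3h or Hist4h. Of the 62 such genes listed, 23 reached at least 10 rounded counts in at least 1 library and are described here as the members. The tables list 16775 genes in all, of which 12860 pass the same minimum. The members comprise 1 of 6 H1 genes, 8 of 16 H2A genes, 7 of 17 H2B genes, 2 of 10 H3 genes and 5 of 13 H4 genes. By cluster, 18 of 51 Hist1 genes, 4 of 8 Hist2 genes, 1 of 2 Hist3 genes and 0 of 1 Hist4 genes are members. At the boundary, Hist1h2ag and Hist1h2bj were kept with a highest count of 12, while Hist1h2ac and Hist1h2ai stayed out with a highest count of 9.

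The RNA came from bone-marrow-derived macrophages of C57BL/6 mice, grown from bone marrow with 10 ng/ml M-CSF over 5 days and then treated for 24 hours. All cultures were given IL4, a cytokine known to push macrophages towards alternative activation. Besides IL4, the cultures of 5 of the 6 libraries received 1 compound each, namely fatostatin, betulin, 25-HC, PF429424 or 1,10-Phen, and the other culture had IL4 alone. Each group is thus 1 library, and it is named below by its compound. The sources used here do not give the doses, and no library without IL4 was analysed. The series title names SREBP2, the sterol-responsive transcription factor, and each comparison asks what a compound given beside IL4 did to gene expression.

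Most clustered histone genes are replication-dependent. They are transcribed together at the start of S phase with the help of the coactivator NPAT, and their mRNAs end in a conserved stem-loop, bound by SLBP, in place of a poly(A) tail. The mRNAs are degraded when DNA synthesis stops. In differentiated and non-dividing cells some of these genes are also known to give longer, polyadenylated mRNAs, and replacement variants such as H2A.Z and H3.3, encoded elsewhere in the genome, are made throughout the cell cycle. The sources used here do not say whether the library protocol selected polyadenylated RNA or removed ribosomal RNA, so a level in these tables is the level of the transcripts that this protocol retained.

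The stem-loops below are shown because they mark where a replication-dependent histone mRNA is cut. They were read from the longest coding transcript of each gene in GENCODE M21 (GRCm38), 5′ to 3′, with the 16 bases of the stem-loop in capitals. Hist1h1c, Hist2h2aa1 and Hist2h3c2 are shown because they were called higher in the 1,10-Phen library, Hist3h2a and Hist1h2ap as large members that were not, and the H4 genes Hist1h4i and Hist1h4n for their different stem.
Hist1h1c: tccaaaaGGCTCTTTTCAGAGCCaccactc
Hist2h2aa1: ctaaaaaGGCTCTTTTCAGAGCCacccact
Hist2h3c2: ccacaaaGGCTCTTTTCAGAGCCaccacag
Hist3h2a: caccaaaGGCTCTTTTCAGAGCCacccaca
Hist1h2ap: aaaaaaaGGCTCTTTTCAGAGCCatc
Hist1h4i: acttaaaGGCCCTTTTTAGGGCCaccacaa
Hist1h4n: aactaaaGGCCCTTTTCAGGGCCatccaat

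The stem-loop pattern was found in the transcripts of 18 of the 23 members, against 54 of the 21901 genes with a coding transcript in GENCODE M21 (0.247%, clustered histone genes included). All 14 H1, H2A, H2B and H3 members with a stem-loop shared the letters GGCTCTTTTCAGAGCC. Among the H4 members, 3 had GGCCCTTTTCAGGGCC and 1, Hist1h4i, had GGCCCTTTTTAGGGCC. A poly(A) signal, AATAAA or ATTAAA on the transcript's own strand, lay within 40 bases of the annotated end in 9 of the 23 members, against 15419 of 21901 genes (70.4%). In the sequences below the signal is in capitals.
Hist1h1c: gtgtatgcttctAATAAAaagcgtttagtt
Hist3h2a: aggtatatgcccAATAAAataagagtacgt
Hist2h2be: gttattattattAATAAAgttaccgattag

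The annotated transcripts of the 7 members with 100 or more counts in some library differed in what follows the stem-loop. The transcript of Hist1h1c ran on for 840 bases and that of Hist3h2a for 1643 bases, both to a poly(A) signal. The transcript of Hist2h3c2 ran on for 377 bases, that of Hist2h2aa1 for 35 bases and that of Hist1h2ap for 3 bases, none of them to a poly(A) signal. Those of Hist1h2bc and Hist2h2be held no stem-loop, and the 2620-base transcript of Hist2h2be ended with a poly(A) signal. These are annotated models, and the gene counts do not say which 3′ end a read came from.

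**Figure D1:**
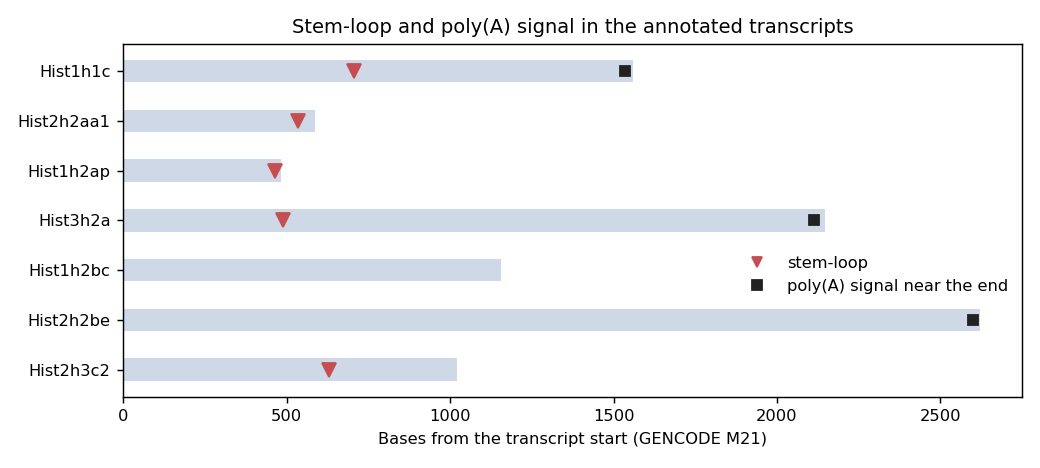
Annotated transcripts of the 7 clustered histone genes with 100 or more counts in some library (bars, in bases from the transcript start, GENCODE M21), with the stem-loop as a triangle and a poly(A) signal near the end as a square. Hist1h1c and Hist3h2a carry both, Hist2h2be carries a poly(A) signal alone, and Hist1h2bc carries neither.

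The 6 libraries held between 20181396 and 21169667 estimated counts. TMM scaling factors ranged from 0.900 in the 1,10-Phen library to 1.06 in the IL4 library. All 62 clustered histone genes together took 1757 counts with fatostatin, 1711 with betulin, 1818 with 25-HC, 1879 with PF429424 and 4846 with 1,10-Phen, against 1568 with IL4 alone. That is 0.0234% of all counts in the 1,10-Phen library and between 0.00777% and 0.00894% in the other 5. Macrophage markers were abundant in every library: the summed level of 10 markers lay between 7916 and 12176 CPM (counts scaled to the library size with the TMM factors), and all 10 were detected. Because no treatment was repeated, no difference has a replicate check and no test between treatments was run. Intervals are exact Clopper-Pearson 95% intervals and cover counting error only. In bulk RNA, fewer cells with a transcript and less of it per cell cannot be told apart.

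Each compound library was set against the same IL4 library, so the 5 ratios of a gene share 1 denominator. The rule for a call, higher or lower, was a log2 ratio of at least 1 in size, with a prior count of 2, and a counting interval that left out no change. The 1,10-Phen library stood apart: 13 of the 23 members were called higher and 3 lower, where the same rule called 7.88% of all 12860 genes higher and 11.7% lower. The median log2 ratio of the members was 1.71, or 1.42 with genes at 0 placed at their bound, and that of all genes was -0.01. Because 4 of the 23 members, all among the 13, reached the minimum through the 1,10-Phen library alone and so had to differ there, these counts and medians describe the members and are read no further. The sums over all 62 listed genes do not depend on that minimum.

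**Figure D2:**
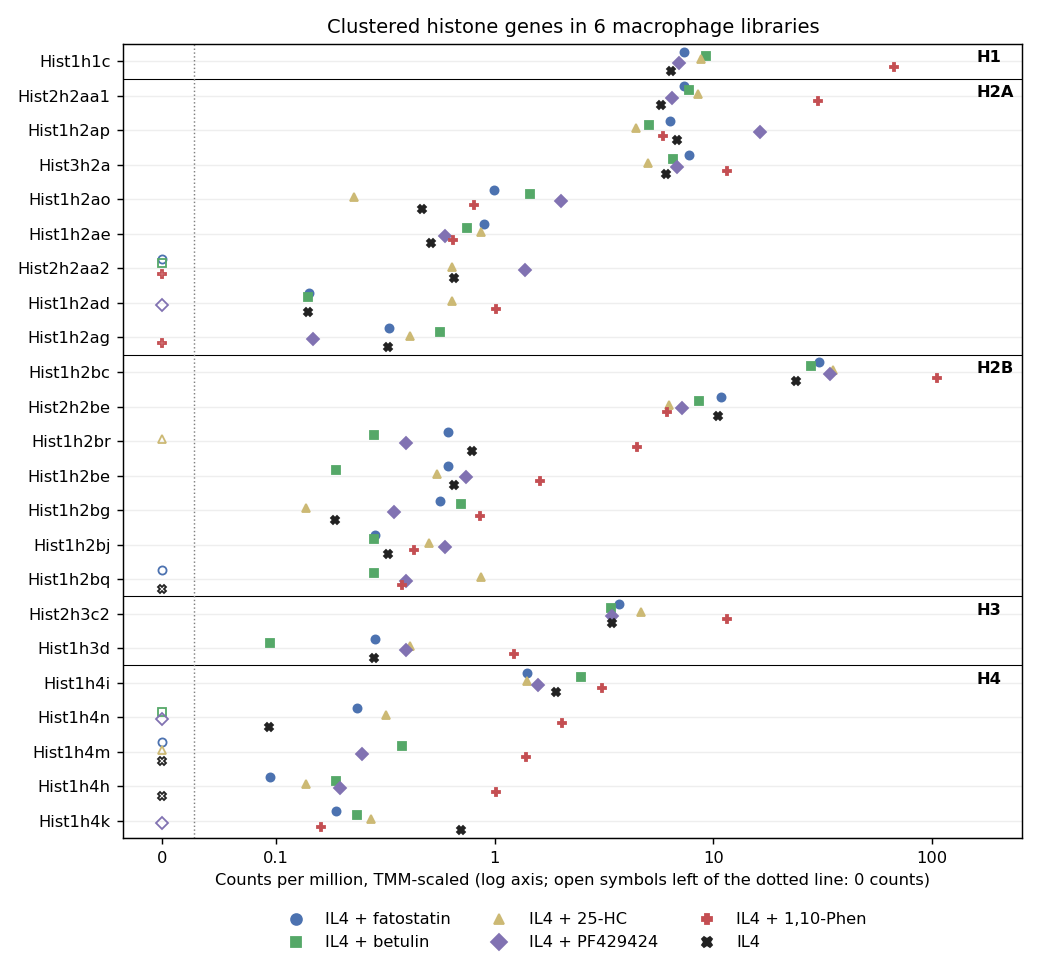
Level of each member in the 6 libraries in CPM (log axis, 1 symbol per library, open symbols for 0 counts), grouped by histone type. In the 1,10-Phen library Hist1h1c and Hist1h2bc lie at 67.0 and 105.2 CPM, and most members lie under 5 CPM in every library.

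Summed over the members, the level was 80.4 CPM with fatostatin, 76.9 CPM with betulin, 80.3 CPM with 25-HC, 90.4 CPM with PF429424 and 256.7 CPM with 1,10-Phen, against 70.0 CPM with IL4 alone. The 1,10-Phen library is the high one, and the other 4 compound libraries lie at most 1.29-fold above the IL4 library. The ratio of the 1,10-Phen library to the IL4 library was 3.67-fold (interval 3.46 to 3.89) for the members and 3.55-fold (3.36 to 3.77) for all 62 listed genes. The 39 listed genes under the minimum summed to 48 counts with fatostatin, 72 with betulin, 54 with 25-HC, 42 with PF429424 and 54 with 1,10-Phen, against 65 with IL4 alone. These 39 genes thus held 54 of the 4846 clustered histone counts of the 1,10-Phen library, and their sum there was close to that in the IL4 library (log2 ratio -0.07, interval -0.61 to 0.48). Because genes reaching 10 counts in any library became members, this closeness follows in part from the minimum and is read no further.

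Type sums over all 62 listed genes, which use no minimum, were called higher in the 1,10-Phen library for all 5 types. The 6 H1 genes together were 9.88-fold higher (8.32 to 11.8), the 16 H2A genes 2.36-fold (2.11 to 2.64) and the 17 H2B genes 3.26-fold. The 10 H3 genes were 2.92-fold higher (2.30 to 3.73) and the 13 H4 genes 2.40-fold (1.79 to 3.23). Over the members alone the folds were 10.4 for H1, 2.41 for H2A, 3.28 for H2B, 3.42 for H3 and 2.86 for H4, but Hist1h3d, Hist1h4h, Hist1h4m and Hist1h4n are members only through the 1,10-Phen library, so the minimum raised the H3 and H4 values. Among the members, no type was called in any of the other 4 comparisons, where the log2 ratios of the type sums ran from -0.49 for H4 with fatostatin to 0.70 for H2A with PF429424. The H1 share of the members' counts was 26.1% in the 1,10-Phen library, against 9.18% in the IL4 library, and the H2A share was 19.5% in the 1,10-Phen library, against 29.7% in the IL4 library.

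**Figure D3:**
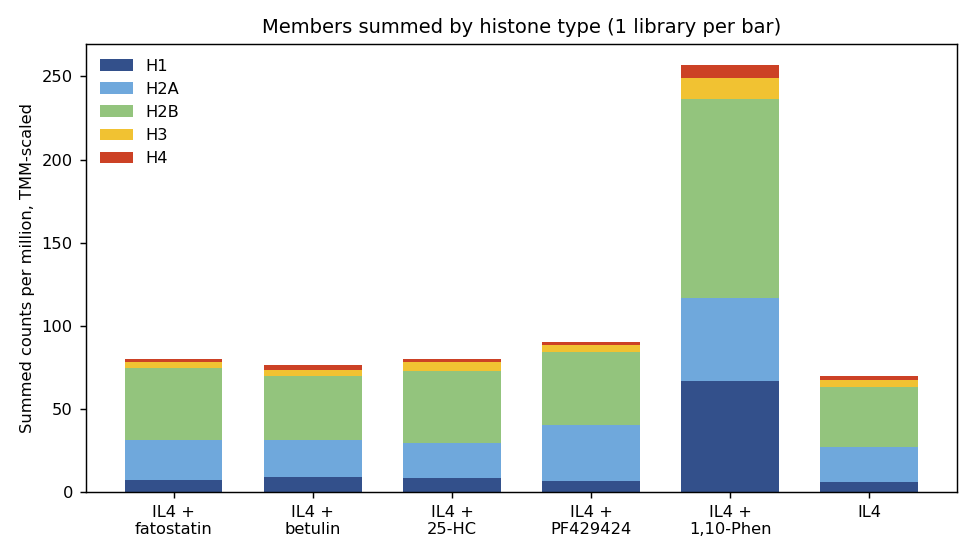
Summed level of the members in CPM by histone type (stacked colours), 1 library per bar. The bar of the 1,10-Phen library reaches 256.7 CPM, with H1 and H2B as its largest parts, and the IL4 bar reaches 70.0 CPM.

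The type sums rested on few genes. In the 1,10-Phen library Hist1h1c held 1250 of the 1263 H1 counts and Hist2h3c2 held 215 of the 249 H3 counts. Hist1h4h, Hist1h4m and Hist1h4n held 19, 26 and 38 of the 148 H4 counts there, against 0, 0 and 2 of 71 in the IL4 library. The H2A and H2B sums each rested on 1 gene. In the 1,10-Phen library the log2 ratio of the H2A sum without Hist2h2aa1 was 0.41 and that of the H2B sum without Hist1h2bc 0.15, and neither was called. The H2A sum was also not called on the log2(FPKM + 1) scale, at 0.93, and the H4 sum was not called among members with at least 10 counts in the IL4 library, at 0.33. The total over all types without Hist1h2bc was still higher, with a log2 ratio of 1.71.

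Linker histone H1 binds the DNA where it enters and leaves the nucleosome and helps to compact chromatin. Its only member was Hist1h1c (current symbol H1f2), on the plus strand at chr13:23738807-23739531 in GRCm38.p6. Hist1h1c had 156 counts with fatostatin, 198 with betulin, 194 with 25-HC, 141 with PF429424 and 1250 with 1,10-Phen, against 138 with IL4 alone. The 1,10-Phen count is far above the other 5, which lie between 138 and 198. The 1,10-Phen to IL4 ratio was 10.4-fold (8.73 to 12.5, log2 3.36), the largest of any member with 100 or more counts. Only 8.54% of the 50-base windows of the Hist1h1c transcript occur in a transcript of another gene, and no annotated gene overlaps it. The other 5 listed H1 genes stayed under the minimum. All 6 H1 genes together had 1263 counts in the 1,10-Phen library, against 147 in the IL4 library.

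H2A pairs with H2B on the outer faces of the nucleosome. Hist2h2aa1, at chr3:96245497-96246052 on the plus strand, had 157 counts with fatostatin, 165 with betulin, 187 with 25-HC, 132 with PF429424 and 564 with 1,10-Phen, against 124 with IL4 alone. Again only the 1,10-Phen library is high. All of its 50-base windows recur in other transcripts, among them those of the overlapping annotated genes Gm20633 and Gm20634, and its neighbour Hist2h2aa2 is a near-identical copy. Hist2h2aa2 had 0 counts with fatostatin, 0 with betulin, 14 with 25-HC, 28 with PF429424 and 0 with 1,10-Phen, against 14 with IL4 alone. The split between the copies is therefore uncertain, but the pair summed to 564 counts in the 1,10-Phen library, against 138 in the IL4 library, a ratio of 4.70-fold (3.90 to 5.70). The pair's counts in the other 4 compound libraries, between 157 and 201, were not called.

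Hist1h2ap, at chr13:21833024-21833475 on the minus strand, followed another pattern. It had 135 counts with fatostatin, 109 with betulin, 97 with 25-HC, 332 with PF429424 and 110 with 1,10-Phen, against 147 with IL4 alone. Here the PF429424 library is the high one, and the 1,10-Phen library is not. The PF429424 ratio was 2.39-fold (1.96 to 2.92, log2 1.24). Hist1h2ao shares 94% of its windows with Hist1h2ap. It had 21 counts with fatostatin, 31 with betulin, 5 with 25-HC, 41 with PF429424 and 15 with 1,10-Phen, against 10 with IL4 alone. The pair summed to 373 counts in the PF429424 library, against 158 in the IL4 library, a log2 ratio of 1.31 (1.05 to 1.60), and to 125 counts in the 1,10-Phen library, a ratio of 0.910 (0.714 to 1.16). Hist1h2ap lies over the antisense gene Gm44466, and reads of both strands cannot be separated where the strand setting is unknown.

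Hist3h2a, the H2A gene of the small Hist3 cluster at chr11:58954685-58955192, had 165 counts with fatostatin, 140 with betulin, 110 with 25-HC, 139 with PF429424 and 216 with 1,10-Phen, against 130 with IL4 alone. The 1,10-Phen library is the highest, but its log2 ratio of 0.92 (0.61 to 1.26) stayed under the size rule. Hist3h2a overlaps Trim17 on the same strand, with which it shares 31% of its windows. The other H2A members, Hist1h2ad, Hist1h2ae and Hist1h2ag, had at most 19 counts in any library.

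H2B completes the H2A-H2B dimer. Hist1h2bc, at chr13:23684199-23692480 on the plus strand, was the most abundant clustered histone gene in every library by counts, with 34.1% of the members' counts in the IL4 library. It had 646 counts with fatostatin, 599 with betulin, 773 with 25-HC, 693 with PF429424 and 1964 with 1,10-Phen, against 512 with IL4 alone. Every compound library is above the IL4 library, and the 1,10-Phen library is the only one more than 2-fold above it, at 4.41-fold (4.0 to 4.87). The log2 ratios were 0.35 for fatostatin, 0.24 for betulin, 0.56 for 25-HC and 0.52 for PF429424. None of these 4 was called, and their counting intervals left out no change. Hist1h2bc shares 30.6% of its windows with other genes.

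Hist2h2be, at chr3:96221072-96223738 on the plus strand, encodes an H2B variant known from mouse olfactory sensory neurons, and its values ran differently. It had 230 counts with fatostatin, 184 with betulin, 138 with 25-HC, 147 with PF429424 and 115 with 1,10-Phen, against 227 with IL4 alone. The 1,10-Phen library has the lowest count, and the fatostatin and IL4 counts are nearly equal. The log2 ratios were -0.74 for 25-HC (-1.07 to -0.44), -0.54 for PF429424 (-0.86 to -0.24) and -0.77 for 1,10-Phen (-1.12 to -0.45), and none reached the size rule. None of its 50-base windows recurs in another gene's transcript.

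**Figure D4:**
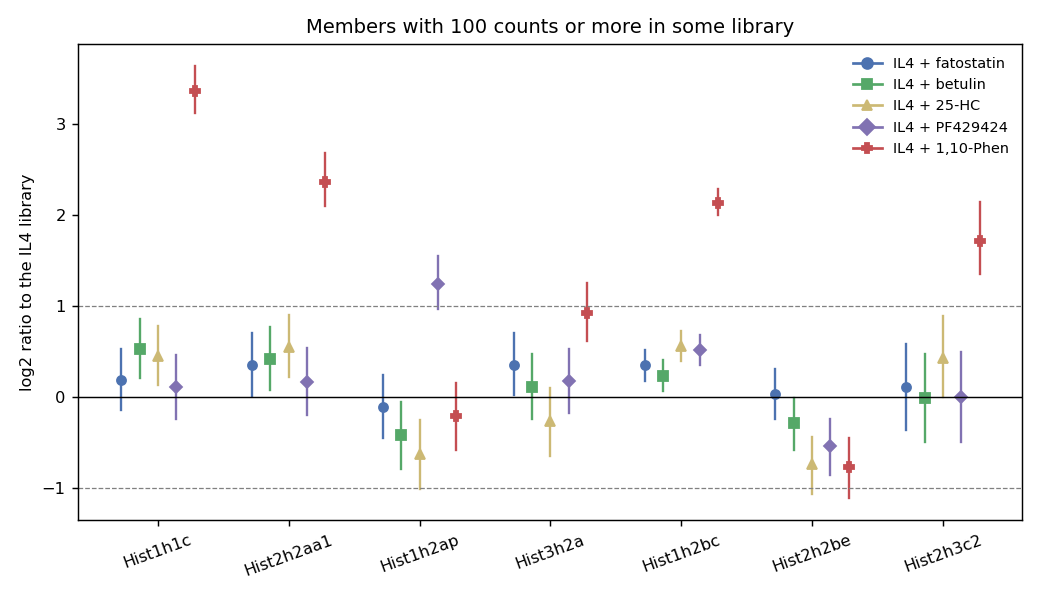
Log2 ratios to the IL4 library, by compound, for the 7 members with 100 or more counts in some library, with exact 95% counting intervals as bars and the 2-fold size rule as dashed lines. In the 1,10-Phen library Hist1h1c, Hist2h2aa1, Hist1h2bc and Hist2h3c2 lie above the upper line, and Hist1h2ap lies above it in the PF429424 library.

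Hist1h2br and Hist1h2bq are near-identical H2B copies whose transcripts share at least 99.8% of their windows. Hist1h2br had 13 counts with fatostatin, 6 with betulin, 0 with 25-HC, 8 with PF429424 and 84 with 1,10-Phen, against 17 with IL4 alone. Hist1h2bq had 0, 6, 19, 8 and 7 counts in the same compound libraries, against 0 in the IL4 library. Taken singly, Hist1h2br was called lower and Hist1h2bq, a member only through that library, higher in the 25-HC library, but the pair summed to 19 counts there, against 18 in the IL4 library. With 1,10-Phen the pair had 92 counts, a ratio of 5.88-fold (3.52 to 10.4). Hist1h2be had 30 counts in the 1,10-Phen library, against 14 in the IL4 library, and overlaps Hist1h1e and Gm11398 on its strand. The remaining H2B members, Hist1h2bg and Hist1h2bj, had at most 16 counts in any library.

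H3 and H4 form the central tetramer of the nucleosome and carry most of its regulatory tail modifications. Hist2h3c2, at chr3:96238479-96239127 on the minus strand, had 79 counts with fatostatin, 73 with betulin, 103 with 25-HC, 70 with PF429424 and 215 with 1,10-Phen, against 74 with IL4 alone. Only the 1,10-Phen library is clearly high, at 3.34-fold (2.55 to 4.41). It shares 64% of its windows with Hist2h3c1, a copy in GENCODE M21 that is not among the 62 genes analysed here. Hist1h3d had 6, 2, 9, 8 and 23 counts in the fatostatin, betulin, 25-HC, PF429424 and 1,10-Phen libraries, against 6 in the IL4 library, and it is a member only through the 1,10-Phen library, so its high value there follows from the minimum.

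Counts of the H4 members were low. Hist1h4i, at chr13:22040960-22041362 on the minus strand, had 30 counts with fatostatin, 53 with betulin, 31 with 25-HC, 32 with PF429424 and 58 with 1,10-Phen, against 41 with IL4 alone, and none of these was called. Hist1h4n and Hist1h4m share at least 83% of their windows with each other. The pair summed to 5 counts with fatostatin, 8 with betulin, 7 with 25-HC, 5 with PF429424 and 64 with 1,10-Phen, against 2 with IL4 alone, and the 1,10-Phen library is the high one. Hist1h4h had 19 counts in the 1,10-Phen library, against 0 in the IL4 library and at most 4 in the others. Hist1h4h, Hist1h4m and Hist1h4n reached the minimum in the 1,10-Phen library alone, so that their high values there follow from the choice of members and no fold is given. Hist1h4k had 3 counts in the 1,10-Phen library, against 15 in the IL4 library, the only library in which it reached the minimum, so its lower values elsewhere likewise follow from the choice of members. It had 4 counts with fatostatin, 5 with betulin, 6 with 25-HC and 0 with PF429424.

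Per transcript length, the order of the members differed between the 1,10-Phen and IL4 libraries. The deposited FPKM values were highest for Hist1h2bc in both, at 134.5 in the 1,10-Phen library and 36.0 in the IL4 library. Hist1h1c came second in the 1,10-Phen library with 85.9 FPKM, and had 9.75 FPKM and the fifth place in the IL4 library. Hist1h2ap was sixth in the 1,10-Phen library with 12.5 FPKM and second in the IL4 library with 17.3 FPKM. Hist2h2aa1 had 51.4 FPKM in the 1,10-Phen library and 11.7 FPKM in the IL4 library, and Hist3h2a had 21.7 FPKM in the 1,10-Phen library and 13.4 FPKM in the IL4 library. With 1 library each, neighbours in these orders cannot be separated beyond their counting error.

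Calls among the clustered histone genes were fewer with the other 4 compounds. With fatostatin 0 of 23 members were called higher (1.12% of all genes) and 2 lower (1.27% of all genes), namely Hist1h4k and Hist2h2aa2. With betulin 4 were called higher (2.02% of all genes) and 4 lower (2.66%), all of them under 100 counts in every library. With 25-HC 2 were called higher (3.3% of all genes) and 1 lower (6%). Those higher include Hist1h2bq, kept through the 25-HC library alone, and the 1 lower was its copy Hist1h2br, while their pair sum was not called. With PF429424 3 were called higher (2.53% of all genes) and 1 lower (6.01%), among them Hist1h2ap, the only member with 100 or more counts called in these 4 comparisons. The 1 called lower with PF429424 was Hist1h4k, which was also called lower with betulin and was kept through the IL4 library alone. Some of these calls thus follow from the minimum, and the counts of calls are read no further. The sums of all members had log2 ratios of 0.20, 0.13, 0.20 and 0.37 for fatostatin, betulin, 25-HC and PF429424. Against the median of the 6 libraries they were 0.00089, -0.065, -0.00089 and 0.17, and against IL4 without Hist1h2bc the 25-HC sum was -0.032, so the sign for betulin and 25-HC depends on the denominator or on 1 gene.

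How the reads were divided between copies limits the single-gene values. At least 1 deposited count of each of the 23 members was not whole, and 216 of the 372 values of the 62 genes were not whole. Within ± 0.05, the H1, H3 and H4 sums over the listed genes were whole in 6 of 6 libraries, the H2A sums in 3 of 6 and the H2B sums in 2 of 6. With 1,10-Phen, 7 of the 13 members with more than 50% of their windows shared were called higher and 3 lower, and 6 of the 10 with at most 50% shared were called higher and 0 lower. The 3 called lower were Hist1h2ag and Hist1h4k, kept through the betulin and IL4 libraries alone, and Hist2h2aa2, whose pair with Hist2h2aa1 was called higher. The calls higher include 4 members kept through the 1,10-Phen library alone, so the split by shared windows is read no further.

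Genes of DNA replication and division were called lower in the 1,10-Phen library, in which the clustered histone sums were called higher. Of 40 S phase genes 0 were called higher and 36 lower, where the same rule called 7.88% of all genes higher and 11.7% lower. Their median log2 ratio was -3.04. The helicase subunit gene Mcm2 had 63 counts in the 1,10-Phen library, against 1651 in the IL4 library (log2 -4.47), and Mcm3 to Mcm7 had log2 ratios between -4.80 for Mcm5 and -2.79 for Mcm6. Ccna2, the S phase cyclin, had 9 counts in the 1,10-Phen library, against 2512 in the IL4 library. The 4 S phase genes not called were Pcna, the polymerase clamp (-0.15), E2f1 (0.09), Gins3 (-0.26) and Dbf4 (-0.66). All 20 mitosis genes were called lower, with a median of -4.12. The proliferation marker Mki67 had 94 counts in the 1,10-Phen library, against 12269 in the IL4 library (log2 -6.80).

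Mitosis genes were also called lower with PF429424. With PF429424 2 of 40 S phase genes, Tk1 (-1.81) and Ccna2 (-1.27), and 15 of 20 mitosis genes were called lower, and with 25-HC the same 2 S phase genes (-1.54 and -1.01) and 5 of 20 mitosis genes. The same rule called 6.01% of all genes lower with PF429424 and 6% with 25-HC, so the S phase counts, 2 of 40 with each, lie near the background. The median log2 ratios of the S phase genes were -0.24, -0.07, -0.44 and -0.55 for fatostatin, betulin, 25-HC and PF429424, and those of the mitosis genes -0.53, -0.24, -0.86 and -1.28. No gene of either list was called with fatostatin or betulin.

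**Figure D5:**
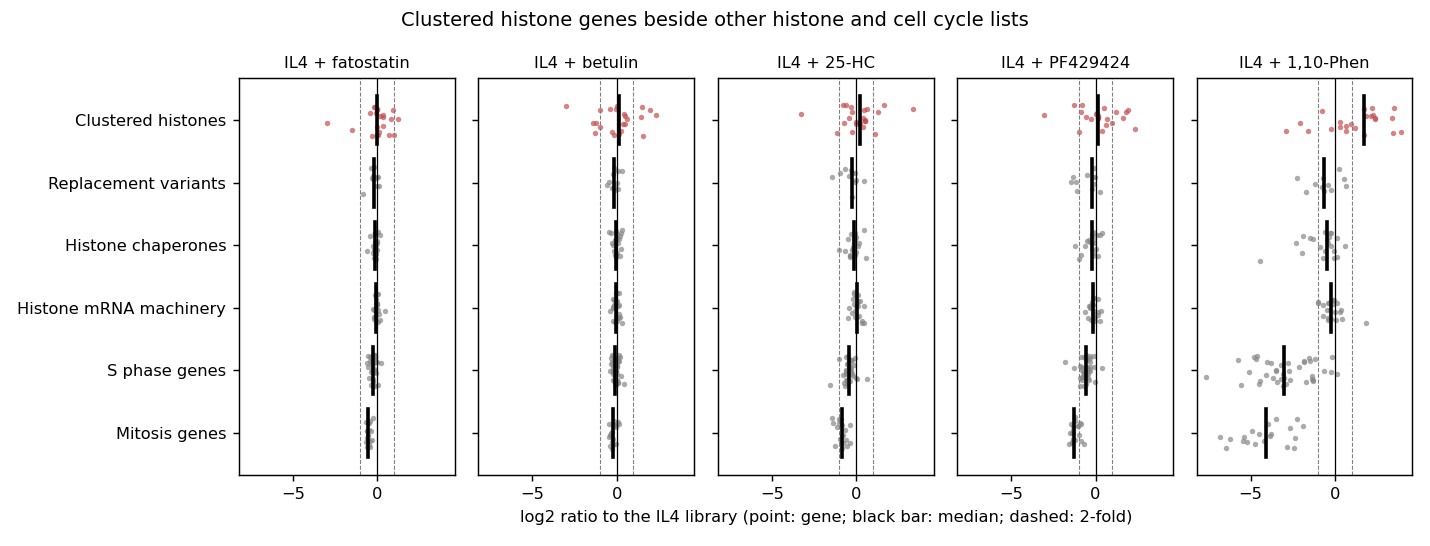
Log2 ratio to the IL4 library for each kept gene (points) of the clustered histones and 5 other lists, 1 panel per compound, with the median as a black bar and 2-fold as dashed lines. In the 1,10-Phen panel the S phase and mitosis medians are -3.04 and -4.12. The histone median there, 1.71, includes 4 members kept through that library alone and is not set against the other medians.

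The factors that make and use histone mRNA were mostly not called. Of 22 genes of histone mRNA transcription, cutting and decay, none was called with fatostatin, betulin, 25-HC or PF429424. With 1,10-Phen, 1 was called higher (7.88% of all genes) and 1 lower (11.7% of all genes), with a list median of -0.25. Slbp, the stem-loop binding protein, had 547 counts in the 1,10-Phen library, against 1255 in the IL4 library, a log2 ratio of -0.99 (-1.14 to -0.85) that did not reach the size rule. Npat, the coactivator of the histone clusters, was called lower with 304 counts in the 1,10-Phen library, against 719 in the IL4 library (log2 -1.04). Zfp473, whose human counterpart encodes a factor of histone mRNA end cutting, was called higher with 106 counts in the 1,10-Phen library, against 32 in the IL4 library (log2 1.86). For the other 4 compounds the Slbp log2 ratios lay between -0.45 with PF429424 and -0.18 with fatostatin.

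Replacement variants are taken up by chromatin outside S phase as well. Of 11 variant genes 0 were called higher and 3 lower in the 1,10-Phen library: H2afz (log2 -1.19), H2afv (-1.74) and Cenpa, the centromeric H3 (-2.28). The same rule called 11.7% of all genes lower there. H3f3b (0.68), H1f0, the linker variant of resting and differentiated cells (0.55), H3f3a (-0.42) and H2afx (-0.80) were not called. With PF429424 4 variant genes were called lower (6.01% of all genes), with 25-HC 1 (6% of all genes), and with fatostatin and betulin 0. Summed deposited FPKM of these 11 genes was 969 with fatostatin, 1006 with betulin, 851 with 25-HC, 855 with PF429424 and 703 with 1,10-Phen, against 1089 with IL4 alone. The 23 clustered members made up 33.7% of the clustered and replacement FPKM together in the 1,10-Phen library, against 9.40% in the IL4 library and 10.8 to 14.5% in the other 4 libraries.

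Among 21 histone chaperones and assembly factors, which escort new histones onto DNA, 6 were called lower in the 1,10-Phen library (11.7% of all genes) and 0 higher, with a median of -0.49. Besides Mcm2, which binds H3-H4 as well as opening DNA, these were Asf1b (-2.31), Tonsl (-1.94), Chaf1b (-1.91), Chaf1a (-1.47) and Hat1 (-1.31). Asf1b alone was called lower with 25-HC (-1.01) and with PF429424 (-1.23), and none of the list was called with fatostatin or betulin.

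Markers of other cells that a bone marrow culture could hold were also called lower in that library. Of 13 neutrophil and precursor markers 9 were called lower in the 1,10-Phen library (11.7% of all genes) and 9 in the PF429424 library (6.01% of all genes). Those lower in the 1,10-Phen library include Mpo (7 counts, against 238 in the IL4 library) and Ngp (112, against 1332). The summed level of the 13 markers was between 464 and 904 CPM and included 15529 counts of Mmp8 in the 1,10-Phen library, against 11326 in the IL4 library. With fatostatin 0 were called higher and 1 lower, with betulin 1 and 1, and with 25-HC 3 and 1. The shares of all genes for these compounds are given above. Of the macrophage markers, Mertk (-2.82) and Fcgr1 (-1.87) were called lower in the 1,10-Phen library, while Adgre1, Csf1r, Cd68, Itgam, Lyz2, Cd14 and Spi1 were not called. The part of other cells in the histone values was not tested.

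The remaining marker lists kept between 1 and 5 genes each. Their summed levels cover every gene of a list that was found, kept or not. Of the 9 erythroid genes found, which together summed to 0.640 to 1.13 CPM, only Epor was kept. It had 14 counts with fatostatin, against 4 with IL4 alone, and was called higher with fatostatin alone. Epor reached the minimum only through the fatostatin library, so its high value there follows from the minimum. Lymphocyte markers, 4 of 10 kept, summed to at most 5.96 CPM, and 2 were called lower and 0 higher in the 1,10-Phen library. With 25-HC 3 of them were called lower, with betulin and PF429424 2 each, and with fatostatin 0. Stromal markers, 5 of 8 kept, summed to 105.2 CPM in both the 1,10-Phen and the IL4 library, with none called in the 1,10-Phen library. Col1a1 and Col1a2 were called lower with betulin and with PF429424. Mast cell, basophil and megakaryocyte markers, 5 of 7 kept, summed to 328.5 CPM in the 1,10-Phen library, against 437.0 CPM in the IL4 library, with 2 called lower. Gata2 was called higher with 25-HC (log2 2.25) and PF429424 (1.71), Pf4 lower with 25-HC (-1.11) and Ppbp lower with PF429424 (-2.25). The shares of all genes called with each compound are given above.

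Upstream sequence was looked at because several members were called higher together. RefSeq (GRCm38.p6) gave a promoter window, 250 bases before to 50 bases after the start, for 21 of the 23 members; Hist1h2bc and Hist2h2be have none in the table. CCAAT, the site of the NF-Y factor, was present on either strand in 16 of the 21 members (76.2%), against 41.1% of 27025 genes. Of the 57 listed clustered histone genes with a window, members or not, 48 held it (84.2%), so it is not particular to the members. The octamer ATTTGCAT, bound by Oct factors at H2B genes, was present in 4 (19.0%), against 1.97% of genes. TATAAA was present in 9 (42.9%), against 15.7% of genes, the E2F-like TTTCGCGC in 3 (14.3%), against 0.374%, and the ACGTG core in 8 (38.1%), against 21.8%. In the 57 listed genes the shares were 22.8% for ATTTGCAT, 57.9% for TATAAA, 12.3% for TTTCGCGC and 22.8% for ACGTG. No 2 of these matches overlapped in any member's window. Some members have overlapping windows, such as the neighbours Hist1h2ag and Hist1h2bj, and some have near-identical ones, such as Hist1h4m and Hist1h4n. The same site can thus be counted for more than 1 member, and the members' shares are not shares of separate promoters. CCAAT was present in all 5 members with 100 or more counts and a window: Hist1h1c, Hist2h2aa1 and Hist2h3c2, which were called higher with 1,10-Phen, and Hist1h2ap and Hist3h2a, which were not. Matches were counted over the whole window and need not lie upstream. In Hist2h3c2 the CCAAT match lies in the 50 bases after the start, and the 250 bases before the start hold none.

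The 250 bases upstream of the annotated starts of Hist1h1c (chr13:23738557-23738806, plus strand) and Hist2h2aa1 (chr3:96245247-96245496, plus strand) are shown, 5′ to 3′, as the members with the largest 1,10-Phen ratios among those with 100 or more counts. Matches on either strand are in capitals: CCAAT, or ATTGG where it lies on the other strand.
Hist1h1c: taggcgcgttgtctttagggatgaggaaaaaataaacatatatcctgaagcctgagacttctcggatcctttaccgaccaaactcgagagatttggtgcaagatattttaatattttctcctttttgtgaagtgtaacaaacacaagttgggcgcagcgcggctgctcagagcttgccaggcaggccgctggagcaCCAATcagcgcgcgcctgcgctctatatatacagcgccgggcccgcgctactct
Hist2h2aa1: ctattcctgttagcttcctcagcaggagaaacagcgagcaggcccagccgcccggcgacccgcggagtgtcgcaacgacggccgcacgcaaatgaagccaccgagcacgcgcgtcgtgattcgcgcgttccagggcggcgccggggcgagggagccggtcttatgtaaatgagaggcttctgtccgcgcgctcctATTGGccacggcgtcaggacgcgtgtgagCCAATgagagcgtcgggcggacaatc

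Both windows hold CCAAT, 1 match upstream of Hist1h1c and a pair of opposite matches upstream of Hist2h2aa1. A match is a description of these letters and not a measurement of binding.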

How the data were processed

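Total RNA of 6 macrophage libraries, 1 ug each, was sequenced. The deposited tables hold, per the file headers, an expected count for each gene, an estimated count that is not scaled between libraries. They also hold FPKM, per the file headers, in which the authors adjusted for transcript length and depth. Between 30.5% and 32.0% of a library's counts are not whole. RSEM 1.2.12, DESeq2, HISAT2 and Bowtie2 are named in the submitters' processing notes, without their roles, and no source used here gives the strand setting.

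Counts were rounded and scaled with TMM factors (edgeR 4.0.16, R 4.3.3), and each compound library was set against the IL4 library as a log2 ratio with a prior count of 2. In type and family sums and in folds no prior was added. Genes with at least 10 counts in at least 1 library were kept. A call needs a 2-fold change and an exact 95% counting interval without no change; the floor for genes at 0 is 3 counts. Simulated data were used to check the procedure. Since there is 1 library per treatment, no test was run.

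Named are members with 100 or more counts, the 4 of highest mean CPM of each type and, in the lists, the 4 largest ratios at a CPM of at least 5 plus 15 set genes; some of these are left out of the text, and some others are given, such as Hist1h2bg, Hist1h2bj and Hist1h4k, chosen after their values were seen. The members and the lists were chosen with earlier results of these data known. Listed positions come from RefSeq on GRCm38.p6, and 59 of 62 equal those in the tables after the tables' rounding to 3 digits. Transcripts come from GENCODE M21; windows of 50 bases were compared on both strands. Alternatives were scaling by library totals or by DESeq2 1.42.0 size factors, all genes unfiltered or those reaching a CPM of 1, a prior count of 0.5 or 10, log2(FPKM + 1), the median of the 6 libraries as denominator, unrounded counts, sums without the largest member, a minimum of 10 counts in the IL4 library and near-identical pairs summed. The single value of 1 macrophage marker is not reported here. The other steps ran in Python 3.11.15 (pandas 2.3.3, SciPy 1.17.1).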

Additional observations from a re-analysis of the deposited data

How the results depend on the processing

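No paired analysis was possible because each treatment has 1 library and the titles carry no replicate numbers. In the 1,10-Phen library the members' sum was higher under every alternative run. Its log2 ratio was 1.63 with library totals, which move the median of all genes to -0.25, 1.65 with log2(FPKM + 1), 1.68 against the median of the 6 libraries and 1.71 without Hist1h2bc. With the largest member of each type left out, which leaves no H1 member and mostly members kept through the 1,10-Phen library for H3 and H4, 2 types were called higher. With library totals the PF429424 sum was 0.23. Against the median of the 6 libraries the sums were 0.00089 for fatostatin, -0.065 for betulin, -0.00089 for 25-HC and 0.17 for PF429424, and without Hist1h2bc the 25-HC sum was -0.032.

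Counts of calls moved more. With no filter, over 62 genes, the 1,10-Phen median was 0 with 5 called lower; fatostatin had 1 higher and 4 lower, 25-HC 2 lower and PF429424 3 lower. At a CPM of at least 1, over 17 members, fatostatin had 1 lower, betulin 2 higher, 25-HC 1 higher, PF429424 0 lower and 1,10-Phen 1 lower. With a prior count of 10, fatostatin had 1 lower, betulin 1 higher and 1 lower, 25-HC 1 higher and 1,10-Phen 1 lower. With log2(FPKM + 1), fatostatin had 1 lower, betulin 1 higher and 1 lower, and 25-HC 0 of either. Against the median of the 6 libraries, betulin had 1 higher, 25-HC 4 lower and PF429424 3 lower. Chosen after seeing the data, a minimum of 10 counts in the IL4 library left 14 members, of which 6 were higher with 1,10-Phen, 1 with betulin and 0 with 25-HC. Also chosen afterwards, near-identical pairs summed left 19 members: fatostatin had 1 lower, betulin 1 higher and 2 lower, 25-HC 1 higher and 0 lower, and PF429424 1 higher. Restricting to members with whole counts left 0 and gave no value. The other 301 values over all members stayed within their limits. Members with under 100 counts are limited by depth.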
